A study of Mus musculus with 12 samples.

Results

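Expression in the ileum of mice null for cytochrome P450 oxidoreductase (POR) was compared with that of wild-type mice over 2 diets, and genes whose difference had the same sign on each diet were described. All 12 arrays of the series entered the comparison, 6 POR-null and 6 wild type, with diet as a covariate. Of 12393 genes measured, 5149 had the same sign on both diets. The groups were POR-null mice on the control diet, POR-null mice given quercetin, wild-type mice on the control diet and wild-type mice given quercetin, with 3 arrays each. All mice were males aged 6 to 8 weeks, and the labels give C57BL/6 as the strain. Every group was adapted for 14 days to RM3, a soya-free powdered diet, and then received either RM3 alone or RM3 with quercetin, a plant flavonol, at 6.2 g per kg (7 mg per mouse), with tissue taken after 24 h. Each array held total RNA pooled from 3 mice and prepared from epithelium scraped off the lowest of 3 equal lengths of small intestine, so p-values measure the spread between pools and not between single animals. Neither the allele nor the tissues that lack POR are stated in the labels. Por itself is not analysed here, and no check of the genotype by its level was made.

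POR is a flavoprotein of the endoplasmic reticulum that passes electrons from NADPH to the microsomal cytochrome P450 enzymes, which oxidise drugs, sterols, fatty acids and retinoids. It also feeds squalene monooxygenase (Sqle) and lanosterol demethylase (Cyp51), which are steps of cholesterol synthesis, as well as haem oxygenase, and cytochrome b5 can supply electrons to some P450 reactions beside it. The ileum takes up bile acids made in the liver from cholesterol by P450 enzymes, and ileal cells signal back to the liver through the hormone Fgf15.

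Values were log2 expression levels with array medians of 5.91 to 5.96. Over all probe sets, r was 0.9917 to 0.9956 for arrays of the same group and 0.9897 to 0.9954 for arrays of different groups. Wild-type control replicate 2 stood apart on the first principal component (19.69% of the variance), with a score of -25.57 where the other scores ran from -10.80 to 10.56. For 15 genes typical of duodenum and jejunum the mean level was 9.31 to 9.82 in POR-null arrays, and it was 10.47 in that wild-type array and 9.11 to 9.89 in the other wild-type arrays. Its values are kept below, and the list counts that moved most when it was dropped are given without it as well. For 13 general enterocyte genes the mean level was 11.40 to 11.46 in POR-null and 11.43 to 11.50 in wild-type arrays. For 11 genes of the ileum it was 9.43 to 9.79 in POR-null and 9.33 to 9.77 in wild type. These levels cannot check the tissue label, because every array was labelled ileum and no other segment was there to compare. The mean level of 23 genes of smooth muscle and stroma was 6.01 to 7.08 in POR-null and 5.94 to 6.61 in wild-type arrays, and the part of such tissue in the differences below was not tested. In whole scrapings, fewer cells of a type and less RNA per cell cannot be told apart.

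No probe set passed an adjusted p of 0.05 for genotype over both diets (limma, 0 of 22626, 0%), and the smallest adjusted p was 0.0605, for Lamb3. At an unadjusted p under 0.05 there were 1450 probe sets (6.41%), 772 higher and 678 lower in POR-null. Counted by gene, 781 of 12393 (6.3%) reached that level, 389 higher in POR-null (3.14%) and 392 lower (3.16%). Genotype on the control diet alone gave 0 probe sets past the adjusted threshold in limma (2293 at an unadjusted p under 0.05), and genotype on the quercetin diet alone also gave 0 (1585 unadjusted). A test of whether the genotype difference itself depended on diet gave 0 as well (2332 unadjusted, smallest adjusted p 0.0917).

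The differences measured on the control diet and on the quercetin diet, which share no arrays, were set side by side for each gene. Of all genes, 5149 (41.5%) had the same sign on both diets, 2548 higher (20.6%) and 2601 lower (21%) in POR-null, while 6930 had opposite signs and 314 had a difference of 0 on at least 1 of the diets. Across genes the correlation of the 2 differences was -0.0156, and genes are not independent replicates. Among the 133 genes at an unadjusted p under 0.05 on each diet, 61 had the same sign (27 higher and 34 lower) and 72 opposite signs. The 3 POR-null and 3 wild-type arrays did not overlap on either diet for 212 genes, of which 81 lay the same way on both (0.654% of all genes) and 131 opposite ways (1.06%). Without wild-type control replicate 2, 5369 genes had the same sign (43.3%) and 6797 opposite signs, and the genes at an unadjusted p under 0.05 on each diet were 83 with the same sign and 70 with opposite signs. For 34 genes (0.274%) the 6 POR-null arrays did not overlap the 6 wild-type arrays at all, with 18 lying above (0.145%) and 16 below (0.129%). The genes described next are the 15 in each direction with the smallest p among those sharing a sign, so the shared sign is how they were chosen and is not a result.

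**Figure D1:**
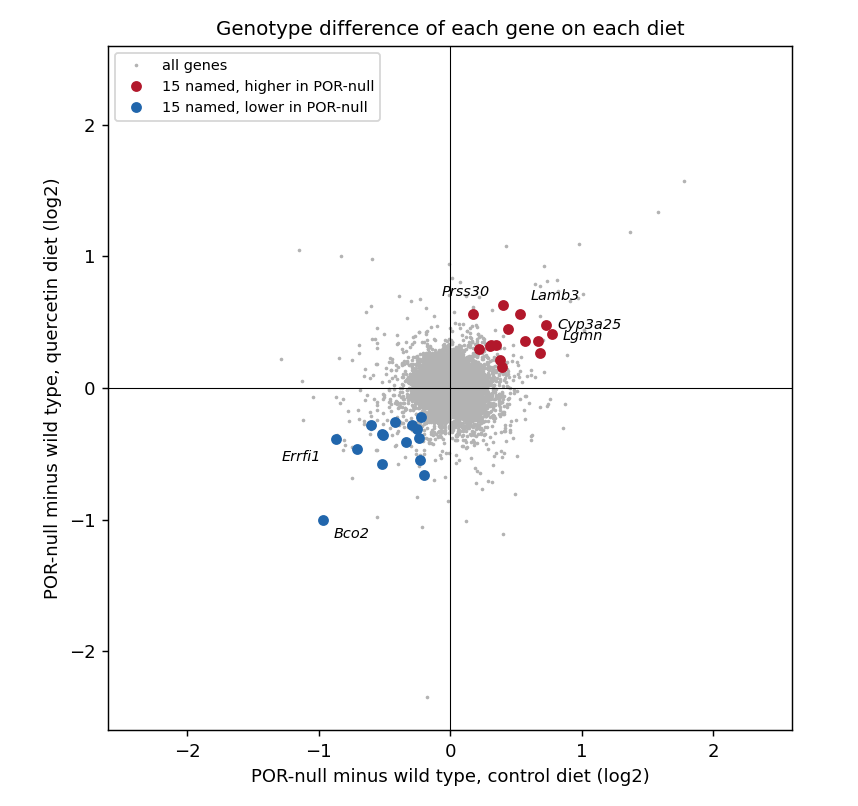
Difference POR-null minus wild type (log2) of each gene on the control diet (horizontal axis) and on the quercetin diet (vertical axis); grey points are all 12393 genes, red the 15 named genes higher in POR-null and blue the 15 named genes lower. The grey cloud has no slope (r = -0.0156 across genes), and the named genes lie in the 2 quadrants of shared sign by the way they were chosen.

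Lamb3, which encodes the beta 3 chain of a laminin in the basement membrane under epithelia, had the smallest p of all genes. It was at 9.66, 9.73 and 9.63 in POR-null control pools and 9.82, 9.59 and 9.51 in POR-null quercetin pools. Wild-type pools had 9.16, 9.26 and 9.00 on the control diet and 8.98, 9.31 and 8.95 on the quercetin diet (log2 levels). Every POR-null array lay above every wild-type array; the difference was 0.55 ± 0.07 on the log2 scale (SE, 95% interval 0.39 to 0.71), a 1.46-fold higher level, with 0.53 on the control diet and 0.56 on the quercetin diet, and the adjusted p was 0.0605 (limma). Its mean level was 9.66 ± 0.11 in POR-null and 9.11 ± 0.15 in wild type (SD, n = 6 each). It passed under 10 of 24 alternatives, with an adjusted p between 0.0141 and 0.278 over all of them. Prss30, a trypsin-like serine protease, was at 10.68, 10.66 and 10.51 in POR-null control pools and 10.83, 10.80 and 10.65 in POR-null quercetin pools. Wild-type pools had 10.37, 10.39 and 9.90 on the control diet and 10.09, 10.20 and 10.09 on the quercetin diet. Again no wild-type array reached the lowest POR-null array, and the difference was 0.51 ± 0.08 (SE, 1.43-fold, adjusted p 0.111), with 0.40 on the control diet and 0.63 on the quercetin diet. Lgmn, the lysosomal endopeptidase legumain, had levels of 8.04, 8.46 and 8.52 in POR-null control pools and 8.37, 8.00 and 8.13 in POR-null quercetin pools. Wild-type pools had 7.62, 7.67 and 7.41 on the control diet and 7.68, 7.85 and 7.75 on the quercetin diet. Both diets separated the genotypes, by 0.77 on the control diet and 0.41 on the quercetin diet, and the difference over both was 0.59 ± 0.10 (SE, adjusted p 0.111). Lgmn also stands on the list of macrophage and dendritic cell genes, whose mean level was 5.94 to 6.13 in POR-null and 5.89 to 6.05 in wild-type arrays. That mean includes Lgmn itself, and the part of those cells in the Lgmn difference was not tested.

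Chpt1, choline phosphotransferase, makes the membrane lipid phosphatidylcholine. Its levels were 8.25, 8.26 and 8.19 in POR-null control pools and 8.17, 8.16 and 8.30 in POR-null quercetin pools. Wild-type pools had 7.82, 8.09 and 7.88 on the control diet and 7.85, 7.88 and 7.94 on the quercetin diet. The groups did not overlap on either diet, and the difference was 0.31 ± 0.05 (SE, adjusted p 0.111). Of its 3 other probe sets, 1 at a mean level of 6.67 differed by 0.38, 1 at 4.66 by 0.16 and 1 at 5.31 by -0.00. Glul, glutamine synthetase, was at 7.57, 7.71 and 7.49 in POR-null control pools and 7.50, 7.33 and 7.22 in POR-null quercetin pools. Wild-type pools had 6.91, 6.94 and 6.92 on the control diet and 6.68, 7.25 and 7.04 on the quercetin diet. On the control diet the genotypes were apart, but on the quercetin diet wild-type replicate 2 lay above POR-null replicate 3; the difference was 0.51 ± 0.09 (SE, adjusted p 0.111). With single arrays left out the adjusted p (limma) was 0.0312 to 0.315, under 0.05 in 1 of 12 cases, when that overlapping wild-type array was dropped. Slc13a1, a sodium-sulfate cotransporter of the brush border, was at 11.21, 11.21 and 10.94 in POR-null control pools and 11.08, 10.90 and 10.96 in POR-null quercetin pools. Wild-type pools had 10.86, 10.58 and 10.60 on the control diet and 10.28, 10.71 and 10.59 on the quercetin diet. All POR-null arrays were above all wild-type arrays, by a mean of 0.45 ± 0.08 (SE, adjusted p 0.111), and the diets gave almost the same value, with 0.44 on the control diet and 0.45 on the quercetin diet.

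Cyp3a25, a drug- and steroid-oxidising P450 of the 3A family and a direct recipient of electrons from POR, had the largest difference among the genes whose 6 POR-null arrays lay wholly above the wild-type arrays. Its levels were 9.57, 9.29 and 9.72 in POR-null control pools and 9.22, 9.60 and 9.60 in POR-null quercetin pools. Wild-type pools had 8.66, 9.21 and 8.51 on the control diet and 9.15, 8.79 and 9.05 on the quercetin diet. The lowest POR-null pool, quercetin replicate 1, was just above the highest wild-type pool, control replicate 2, and the difference was 0.60 ± 0.12 (SE, 1.52-fold, adjusted p 0.188), with 0.73 on the control diet and 0.48 on the quercetin diet. Probe sets for closely related members of this P450 subfamily can share sequence, so its level may include transcripts of other members. Casp4, an inflammatory caspase, was at 9.52, 9.47 and 9.30 in POR-null control pools and 9.51, 9.74 and 9.33 in POR-null quercetin pools. Wild-type pools had 9.27, 8.46 and 8.84 on the control diet and 8.97, 9.18 and 9.28 on the quercetin diet. The POR-null pools were again above all wild-type pools, narrowly on both diets, with a difference of 0.48 ± 0.12 (SE, adjusted p 0.365) and with 0.57 on the control diet and 0.38 on the quercetin diet.

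The remaining 8 genes of this group differed by 0.26 to 0.47. Pmvk, phosphomevalonate kinase, and Fdft1, squalene synthase, are enzymes of cholesterol synthesis and differed by 0.32 ± 0.06 (adjusted p 0.151) and 0.36 ± 0.08 (SE, adjusted p 0.311). Slc5a8, a sodium-coupled carrier of short-chain fatty acids, differed by 0.28 ± 0.06, Slc25a4, a mitochondrial ADP/ATP carrier, by 0.47 ± 0.11, and Cxadr, a receptor protein of tight junctions, by 0.26 ± 0.06. Plagl1, an imprinted zinc finger transcription factor, differed by 0.47 ± 0.10, Mov10, an RNA helicase, by 0.34 ± 0.08, and Cables1, an adaptor of cyclin-dependent kinases, by 0.29 ± 0.06. The 15 genes together had adjusted p-values between 0.0605 and 0.34, and for 7 of them the 6 arrays of each genotype did not overlap. Only Fdft1 among the 15 had an unadjusted interaction p under 0.05, with 0.17 on the control diet and 0.56 on the quercetin diet (adjusted p 0.413).

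**Figure D2:**
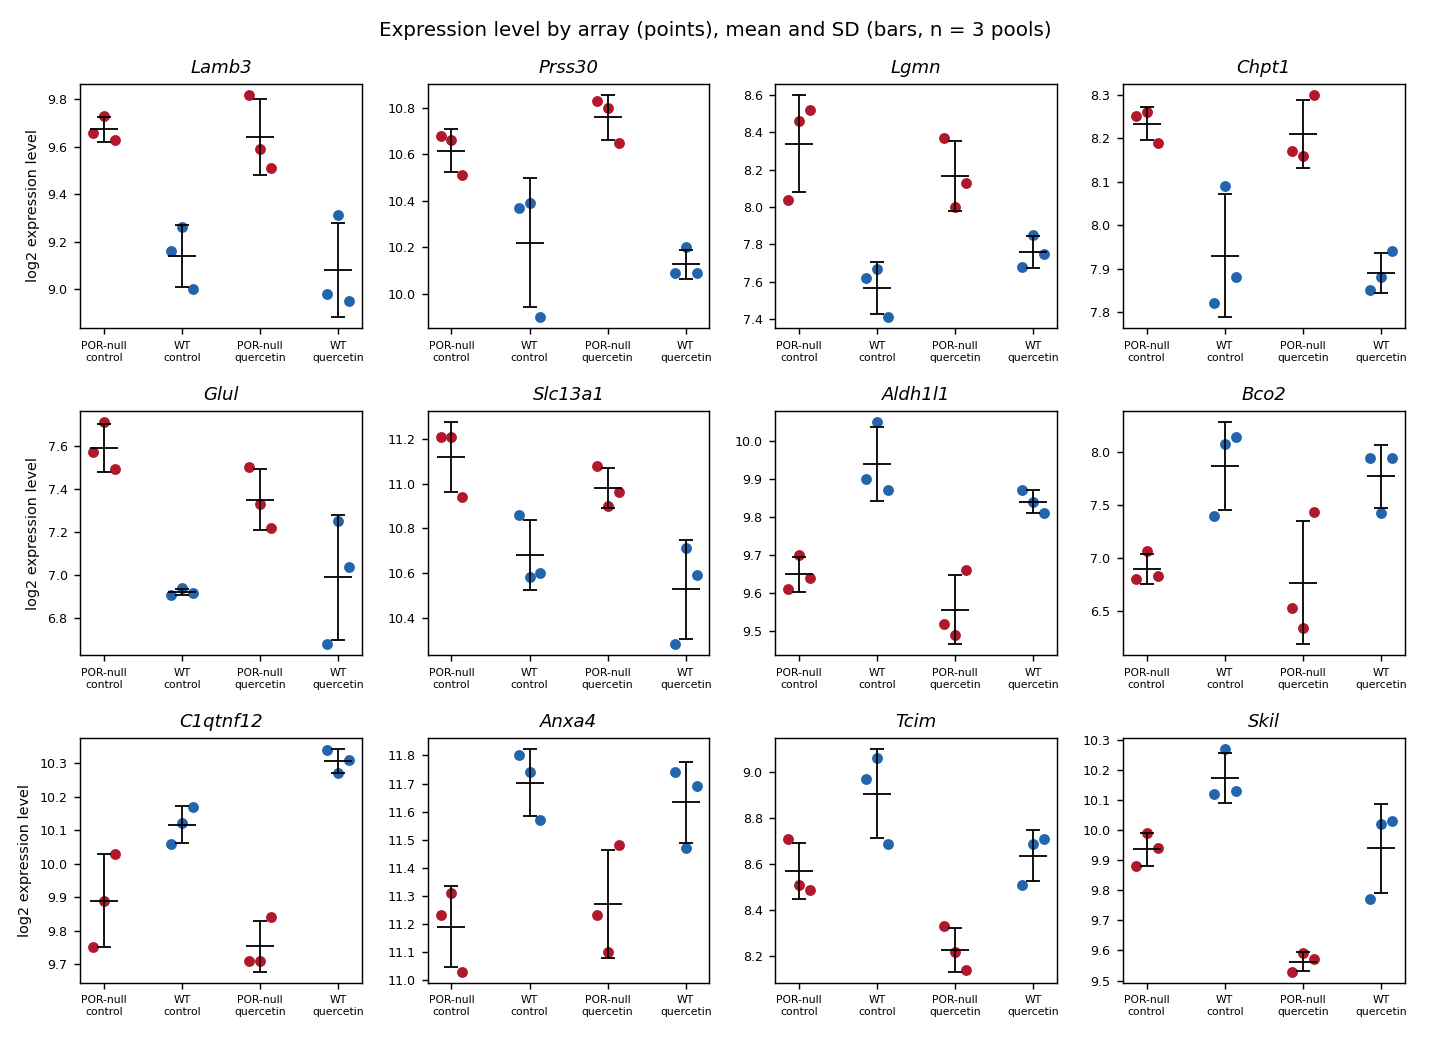
Log2 expression level (vertical axis, scaled for each gene) on each array (points, red POR-null, blue wild type) for the 6 genes with the smallest p in each direction; horizontal bars are group means and whiskers the SD of 3 pools. For Lamb3 the POR-null pools lie at 9.51 to 9.82 and the wild-type pools at 8.95 to 9.31, while for Bco2 POR-null quercetin replicate 3 at 7.43 reaches into the wild-type range.

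Among genes lower in POR-null, Aldh1l1, the cytosolic dehydrogenase of 10-formyltetrahydrofolate in folate metabolism, had the smallest p. Its levels were 9.61, 9.70 and 9.64 in POR-null control pools and 9.52, 9.49 and 9.66 in POR-null quercetin pools. Wild-type pools had 9.90, 10.05 and 9.87 on the control diet and 9.87, 9.84 and 9.81 on the quercetin diet. No POR-null array reached the lowest wild-type array, and the difference was -0.29 ± 0.05 (log2, SE, 95% interval -0.39 to -0.18, adjusted p 0.111), with -0.29 on the control diet and -0.28 on the quercetin diet. Its other probe set, at a mean level of 5.68, differed by -0.11. Bco2, a mitochondrial enzyme that cleaves carotenoids, was at 6.80, 7.06 and 6.83 in POR-null control pools and 6.53, 6.34 and 7.43 in POR-null quercetin pools. Wild-type pools had 7.39, 8.07 and 8.14 on the control diet and 7.94, 7.42 and 7.94 on the quercetin diet. It had the largest difference of the 30 genes, -0.99 ± 0.17 (SE, 1.98-fold lower, adjusted p 0.111), but POR-null quercetin replicate 3 lay above wild-type control replicate 1 and wild-type quercetin replicate 2. With single arrays left out the difference was -1.13 to -0.89 and the adjusted p (limma) 0.0368 to 0.32, under 0.05 in 1 of 12 cases, when that overlapping POR-null array was dropped. C1qtnf12, which encodes the secreted protein adipolin, was at 9.75, 9.89 and 10.03 in POR-null control pools and 9.71, 9.71 and 9.84 in POR-null quercetin pools. Wild-type pools had 10.06, 10.12 and 10.17 on the control diet and 10.34, 10.27 and 10.31 on the quercetin diet. The genotypes were apart on both diets, the difference was -0.39 ± 0.07 (SE, adjusted p 0.111), with -0.23 on the control diet and -0.55 on the quercetin diet (unadjusted interaction p 0.0106, adjusted 0.413). The other 3 probe sets of this gene differed by -0.19, -0.43 and -0.08.

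Anxa4 encodes an annexin, a protein that binds membranes when calcium is present. It was at 11.23, 11.31 and 11.03 in POR-null control pools and 11.23, 11.10 and 11.48 in POR-null quercetin pools. Wild-type pools had 11.80, 11.74 and 11.57 on the control diet and 11.74, 11.47 and 11.69 on the quercetin diet. On the quercetin diet POR-null replicate 3 lay just above wild-type replicate 2, and the difference over both diets was -0.44 ± 0.08 (SE, adjusted p 0.111). Tcim, a small regulator of transcription and immune responses, was at 8.71, 8.51 and 8.49 in POR-null control pools and 8.33, 8.22 and 8.14 in POR-null quercetin pools. Wild-type pools had 8.97, 9.06 and 8.69 on the control diet and 8.51, 8.69 and 8.71 on the quercetin diet. The control diet pools overlapped at POR-null replicate 1 and wild-type replicate 3, and the difference was -0.37 ± 0.07 (SE, adjusted p 0.151). Skil, a repressor of TGF-beta and SMAD signalling, was at 9.88, 9.99 and 9.94 in POR-null control pools and 9.53, 9.59 and 9.57 in POR-null quercetin pools. Wild-type pools had 10.12, 10.27 and 10.13 on the control diet and 9.77, 10.02 and 10.03 on the quercetin diet. Each diet separated the genotypes, yet both groups were lower on quercetin than on the control diet, so the 6 POR-null and 6 wild-type arrays overlapped; the difference was -0.31 ± 0.06 (SE, adjusted p 0.151).

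Aldh1a7, an aldehyde dehydrogenase of the retinal dehydrogenase family, had the largest difference among genes whose POR-null arrays all lay below the wild-type arrays. Its levels were 7.34, 8.06 and 7.90 in POR-null control pools and 8.07, 7.74 and 7.99 in POR-null quercetin pools. Wild-type pools had 8.41, 8.56 and 8.46 on the control diet and 8.69, 8.19 and 8.29 on the quercetin diet. POR-null control replicate 1 was the lowest of the 12, and the difference was -0.58 ± 0.12 (SE, adjusted p 0.188). Plpp3, a phosphatase of lysophosphatidic acid and related lipids, was at 6.85, 6.89 and 6.93 in POR-null control pools and 6.88, 6.79 and 7.13 in POR-null quercetin pools. Wild-type pools had 7.21, 7.53 and 7.72 on the control diet and 7.25, 7.23 and 7.17 on the quercetin diet. The gap was wide on the control diet and narrow on quercetin, with -0.60 on the control diet and -0.28 on the quercetin diet, and the difference was -0.44 ± 0.09 (SE, adjusted p 0.188), with -0.47 from its other probe set. Scamp5, a membrane protein of secretory vesicles, was at 8.00, 7.81 and 7.91 in POR-null control pools and 8.00, 7.88 and 7.95 in POR-null quercetin pools. Wild-type pools had 8.18, 8.66 and 8.05 on the control diet and 8.28, 8.22 and 8.07 on the quercetin diet. Wild-type control replicate 2 was the highest of these arrays by far, and the difference was -0.32 ± 0.09 (SE, adjusted p 0.452). Limd1, a LIM domain adaptor protein, was at 8.65, 8.36 and 8.59 in POR-null control pools and 8.36, 8.65 and 8.44 in POR-null quercetin pools. Wild-type pools had 8.72, 8.67 and 8.69 on the control diet and 8.76, 8.94 and 9.01 on the quercetin diet. Its pools nearly touched on the control diet, with a difference of -0.29 ± 0.07 (SE, adjusted p 0.409), and its second probe set, at a mean level of 8.02, differed the other way, by 0.15.

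The other genes of the lower group differed by -0.22 to -0.63. Errfi1, a feedback inhibitor of the EGF receptor, differed by -0.63 ± 0.13 (SE, adjusted p 0.188), with -0.87 on the control diet and -0.39 on the quercetin diet. Npl, a lyase that breaks down sialic acid, differed by -0.55 ± 0.11, Acadl, the long-chain acyl-CoA dehydrogenase of fatty acid oxidation, by -0.44 ± 0.09, and Ext1, a glycosyltransferase that builds heparan sulfate chains, by -0.43 ± 0.10. Pex19, a chaperone for peroxisomal membrane proteins, differed by -0.22 ± 0.05, Blcap by -0.28 ± 0.06 and Fam102a by -0.34 ± 0.08. Adjusted p-values of the 15 genes ran from 0.111 to 0.34, and for 6 of them the arrays did not overlap. C1qtnf12 and Ext1 had an unadjusted interaction p under 0.05, and Ext1 differed by -0.20 on the control diet and by -0.66 on the quercetin diet (adjusted interaction p 0.426). Of the 30 genes, 15 had more than 1 probe set. For 4 of these another probe set had the opposite sign over both diets, at -0.00 for Chpt1, -0.02 and -0.04 for Fdft1, and -0.09 each for Cxadr and Slc25a4. A shared sign on the control and quercetin diets was also missing from another probe set of Slc25a4 (0.69 and -0.08), Aldh1l1 (-0.26 and 0.04), Acadl (-0.10 and 0.07), Plagl1 (-0.12 and 0.13) and Chpt1 (-0.04 and 0.03). No gene of the 30 changed sign when any 1 array was left out, but the genes were ranked by p, which makes such a change unlikely.

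**Figure D3:**
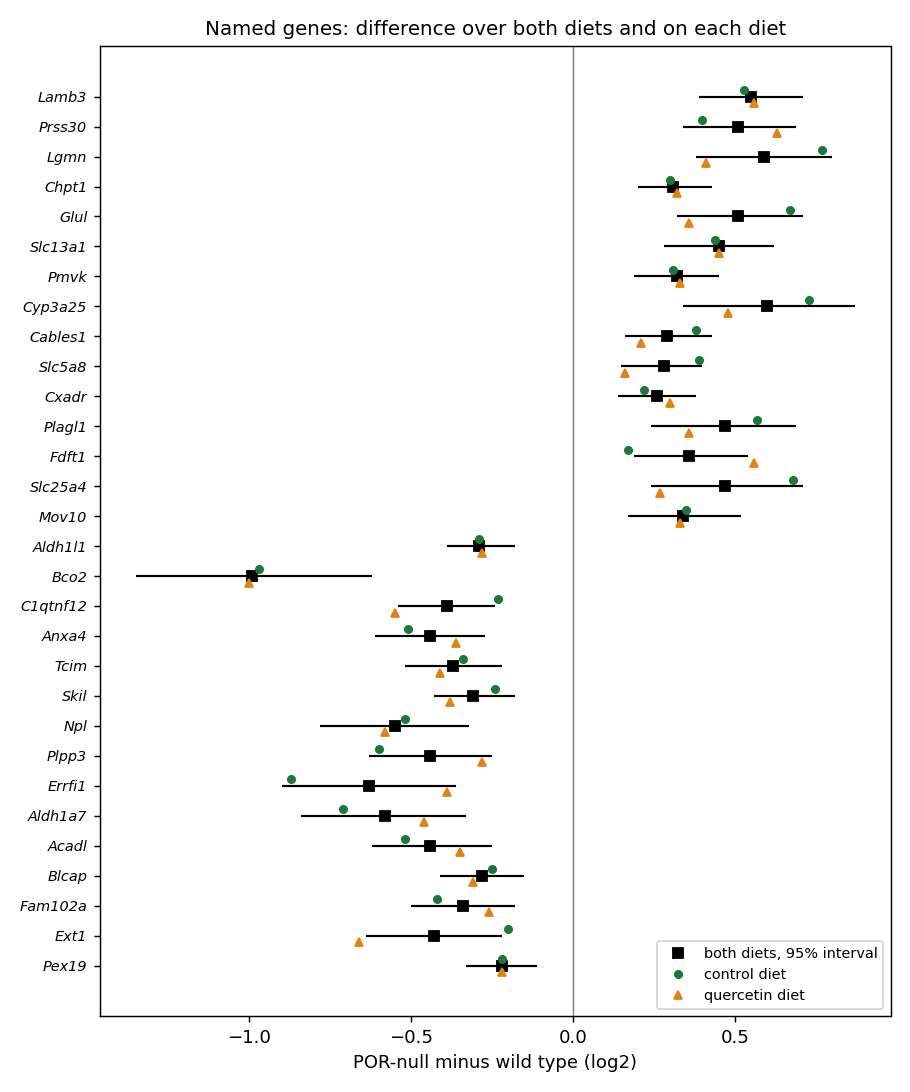
Difference POR-null minus wild type (log2, horizontal axis) for the 30 named genes, over both diets (black squares with 95% intervals) and on the control diet (green circles) and quercetin diet (orange triangles). The intervals of single genes lie on 1 side of 0 because the genes were ranked by p; Bco2 has the largest difference at -0.99 and Pex19 the smallest at -0.22.

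Genes of cholesterol synthesis and uptake had more members with a higher than with a lower level in POR-null. Of 19 genes measured, 11 were higher on both diets and 1 lower on both, where 20.6% and 21% of all genes were. An unadjusted p under 0.05 was reached by 9 with a higher level and 0 with a lower level, beside 3.14% and 3.16% of all genes. No member of this or any other of the 40 lists passed the adjusted threshold (limma, 0 genes). The median difference was 0.18, against -0.00 over all genes, and it was 0.03 on the control diet and 0.33 on the quercetin diet. The mean level of the list overlapped on the control diet, at 8.63 to 8.71 in POR-null and 8.52 to 8.70 in wild type, but not on quercetin, at 8.68 to 8.95 in POR-null and 8.50 to 8.55 in wild type. Pmvk was at 6.84, 6.74 and 6.88 in POR-null control pools and 6.85, 6.95 and 7.02 in POR-null quercetin pools. Wild-type pools had 6.51, 6.59 and 6.43 on the control diet and 6.50, 6.80 and 6.52 on the quercetin diet. The pools were apart on each diet, though wild-type quercetin replicate 2 was above POR-null control replicate 2. Fdft1 was at 9.34, 9.05 and 9.04 in POR-null control pools and 9.29, 9.36 and 9.54 in POR-null quercetin pools. Wild-type pools had 9.05, 9.02 and 8.86 on the control diet and 8.85, 8.86 and 8.80 on the quercetin diet. It overlapped on the control diet and not on quercetin, as did Cyp51 and Idi1, the isopentenyl diphosphate isomerase. Cyp51 differed by 0.30 ± 0.09 over both diets (SE, adjusted p 0.523), with 0.15 on the control diet and 0.46 on the quercetin diet, and Idi1 by 0.23 ± 0.07 (adjusted p 0.567), with 0.10 on the control diet and 0.36 on the quercetin diet. Sqle, squalene monooxygenase, was picked out after its value was seen because it takes its electrons from POR. It was at 9.95, 9.46 and 9.74 in POR-null control pools and 9.61, 9.72 and 10.10 in POR-null quercetin pools. Wild-type pools had 9.60, 9.63 and 9.42 on the control diet and 9.52, 9.39 and 9.46 on the quercetin diet. Quercetin pools did not overlap and control pools did, with a difference of 0.26 ± 0.09 (SE, adjusted p 0.629). Leaving out single arrays gave 7 to 15 genes higher on both diets, with 7 when POR-null control replicate 3 was dropped, 8 when wild-type control replicate 3 was, and 13 when wild-type control replicate 2 was.

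Promoters of 3 of these genes, picked by hand from the 9 of the list at an unadjusted p under 0.05 (limma), are shown as examples. Such promoters are known to pair sites for sterol-responsive factors with CCAAT boxes bound by NF-Y. Each runs from 250 bases before to 50 bases after the annotated start (RefSeq, GRCm38.p6), 5′ to 3′ on the strand of the gene, and capitals mark CCAAT or, where it lies on the other strand, ATTGG. Pmvk lies at chr3:89454291-89454590 on the + strand, Cyp51 at chr5:4104648-4104947 on the - strand and Idi1 at chr13:8885356-8885655 on the + strand.
Pmvk: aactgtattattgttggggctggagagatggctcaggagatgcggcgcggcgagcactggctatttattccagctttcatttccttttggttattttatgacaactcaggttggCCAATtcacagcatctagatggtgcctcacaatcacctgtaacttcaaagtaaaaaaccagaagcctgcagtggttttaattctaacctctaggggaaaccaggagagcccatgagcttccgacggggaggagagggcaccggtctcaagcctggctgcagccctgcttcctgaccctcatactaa
Cyp51: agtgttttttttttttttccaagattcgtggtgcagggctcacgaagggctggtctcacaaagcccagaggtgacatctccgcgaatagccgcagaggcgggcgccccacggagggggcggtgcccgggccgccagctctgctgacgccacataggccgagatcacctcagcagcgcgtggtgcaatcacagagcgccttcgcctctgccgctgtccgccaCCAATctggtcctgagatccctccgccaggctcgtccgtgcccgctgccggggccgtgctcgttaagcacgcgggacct
Idi1: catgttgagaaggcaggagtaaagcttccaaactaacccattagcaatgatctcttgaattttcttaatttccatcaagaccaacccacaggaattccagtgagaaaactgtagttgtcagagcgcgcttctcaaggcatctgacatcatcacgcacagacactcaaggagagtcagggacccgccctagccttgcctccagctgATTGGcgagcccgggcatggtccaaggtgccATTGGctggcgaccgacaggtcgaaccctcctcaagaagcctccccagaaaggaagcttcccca

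CCAAT on either strand was found at -136 in Pmvk, at -29 in Cyp51 and at -45 and -14 in Idi1 (bases from the start). It was present in 14 of the 15 promoters matched among the 19 genes of the list and in 37.4% of 32851 mouse promoters of the same length. Fdft1 and Sqle were not among these 14, for want of either a matched promoter or the motif. The list was counted by the first promoter given for each gene and the background by every promoter given, so these shares are not counted alike. The motif TCACNCCAC, a letter form of the sterol regulatory element searched on both strands, was in 1.24% of promoters, and of the list only Hmgcs1, which makes the precursor of mevalonate, held it. The 2 motifs could share at most 1 base, at their ends, and a match describes the sequence only.

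The cytochrome P450 families 1 to 4, which are the main recipients of electrons from POR, had members in both directions. Of 35 genes measured, 4 were higher and 11 lower on both diets, 2 had an unadjusted p under 0.05 with a higher level and 1 with a lower level, and the median difference was -0.03, where 3.14% and 3.16% of all genes had such a p. Dropping wild-type quercetin replicate 1 gave 5 higher and 5 lower on both diets, dropping wild-type quercetin replicate 3 gave 4 and 7, and the lower count was 8 to 13 without any other array. Beside Cyp3a25, Cyp2d10 differed by 0.16 ± 0.06 (SE, adjusted p 0.621) and Cyp4a14, a fatty acid hydroxylase, by -0.12 ± 0.05 (adjusted p 0.742), both at low mean levels of 4.23 and 3.79. Electron donors other than POR and the enzymes that make and break down haem gave 6 genes higher and 8 lower on both diets of 19 measured, with a median of -0.06, and 2 to 7 higher and 5 to 8 lower when single arrays were dropped (2 and 7 for POR-null control replicate 1, 3 and 8 for wild-type control replicate 3, 5 and 5 for POR-null quercetin replicate 3). Cytochrome b5 (Cyb5a) was the 1 member at an unadjusted p under 0.05, with a difference of -0.18 ± 0.07 (adjusted p 0.711) and with -0.16 on the control diet and -0.19 on the quercetin diet.

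Genes of bile acid sensing and transport went in both directions, with 2 of 9 higher on both diets and 4 lower, and a median of -0.09. At an unadjusted p under 0.05, 3 had a higher level and 2 a lower level, beside 3.14% and 3.16% of all genes. These counts were 0 to 3 and 2 to 3 when single arrays were dropped, and 0 genes passed the adjusted threshold (limma). Fabp6, the ileal bile acid binding protein, was at 12.22, 12.27 and 12.47 in POR-null control pools and 12.05, 12.13 and 12.38 in POR-null quercetin pools. Wild-type pools had 12.76, 12.33 and 12.48 on the control diet and 12.67, 12.56 and 12.75 on the quercetin diet. The control pools overlapped and the quercetin pools did not, with a difference of -0.34 ± 0.09 (SE, adjusted p 0.401). Fgf15, the hormone that ileal cells release in response to bile acids, was at 5.31, 7.20 and 6.85 in POR-null control pools and 5.56, 5.36 and 5.70 in POR-null quercetin pools. Wild-type pools had 6.64, 6.63 and 6.63 on the control diet and 7.01, 8.88 and 7.77 on the quercetin diet. Its control pools overlapped and its quercetin pools were far apart, with -0.18 on the control diet and -2.35 on the quercetin diet; the difference over both was -1.26 ± 0.41 (SE, adjusted p 0.57), and the unadjusted interaction p was 0.00371. Abcc3, an export pump of the basolateral membrane, differed by 0.20 ± 0.08 (adjusted p 0.684) and had nearly the same value on both diets, with 0.21 on the control diet and 0.20 on the quercetin diet. Nr1h4, the bile acid receptor FXR, differed by 0.58 on the control diet and by -0.06 on the quercetin diet, and the unadjusted interaction p was 0.00228; its value over both diets was 0.26 ± 0.12 (adjusted p 0.752). Slc10a2, the apical bile acid transporter, was picked out after its value was seen; it differed by 0.73 ± 0.34 (SE, adjusted p 0.773), with pools spread from 5.99 to 7.52 in POR-null and 5.22 to 7.28 in wild type. The median of this list was 0.03 without POR-null quercetin replicate 2, 0.04 without wild-type quercetin replicate 1 and 0.07 without wild-type control replicate 2, and -0.16 to -0.04 without any other array.

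Transporters of nutrients and ions had 16 of 28 members higher and 6 lower on both diets, beside 20.6% and 21% of all genes, with a median difference of 0.10. At an unadjusted p under 0.05, 8 had a higher level and 0 a lower level, beside 3.14% and 3.16% of all genes. Slc5a8 was at 9.43, 9.57 and 9.65 in POR-null control pools and 9.50, 9.61 and 9.45 in POR-null quercetin pools. Wild-type pools had 9.18, 9.14 and 9.16 on the control diet and 9.30, 9.44 and 9.33 on the quercetin diet. POR-null pools exceeded wild-type pools on each diet, and wild-type quercetin replicate 2 was just above POR-null control replicate 1. When wild-type control replicate 2 was dropped, this list had 17 members higher and 5 lower on both diets, and 10 at an unadjusted p under 0.05 with a higher level; over all arrays dropped singly it had 13 to 17 higher and 3 to 6 lower, with 3 for wild-type control replicate 1. Abcg2, an apical efflux pump, differed by 0.24 ± 0.06 (SE, adjusted p 0.449, limma), and 2 carriers of amino acids, Slc7a9 and Slc6a20a, by 0.27 ± 0.08 and 0.27 ± 0.09. On the control and quercetin diets Abcg2 was at 0.35 and 0.13, Slc7a9 at 0.31 and 0.22 and Slc6a20a at 0.41 and 0.12. Slc7a9 pairs with the heavy chain Slc3a1 to take up cystine and basic amino acids; Slc3a1 was picked out after its value was seen and differed by 0.19 ± 0.07 (adjusted p 0.649). The sodium-glucose transporter Slc5a1, which is also on the list of proximal genes, differed by 0.20 ± 0.08 (adjusted p 0.691). Brush border enzymes gave 5 of 12 higher and 2 lower on both diets with a median of 0.03 (2 higher when POR-null quercetin replicate 1 was dropped, 3 when wild-type quercetin replicate 1 was), and the aminopeptidase Anpep differed by 0.13 ± 0.06, with 0.13 on the control diet and 0.13 on the quercetin diet.

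**Figure D4:**
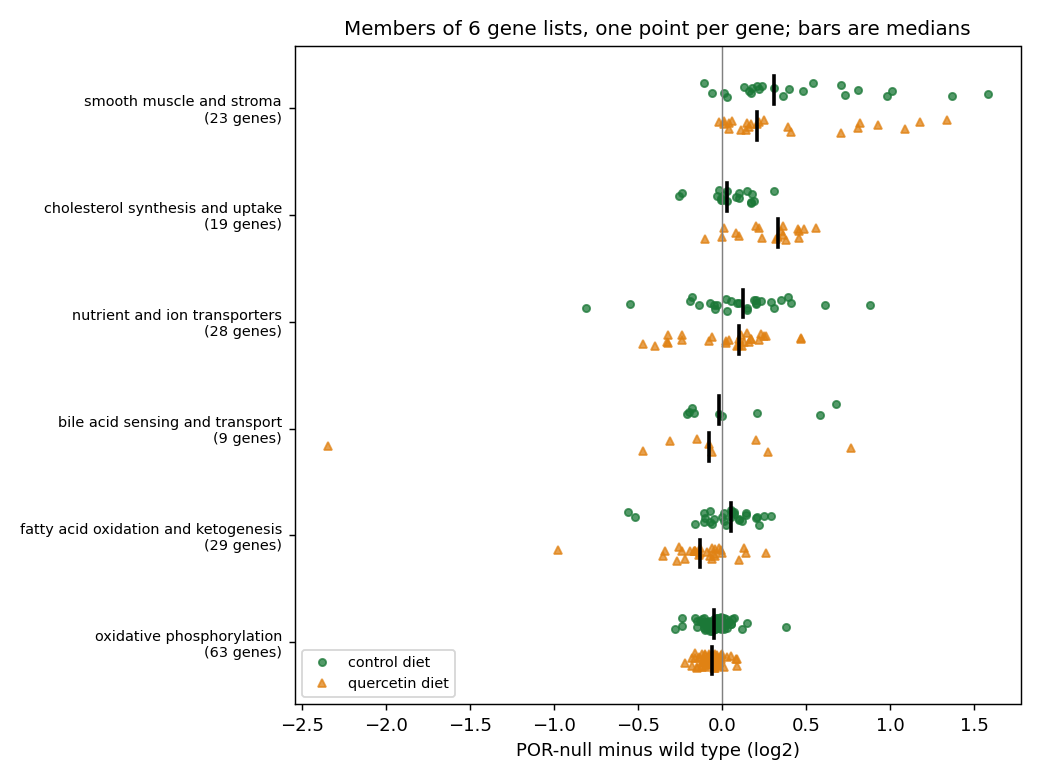
Difference POR-null minus wild type (log2, horizontal axis) of each gene of 6 lists on the control diet (green circles) and the quercetin diet (orange triangles); black bars are medians. Genes of smooth muscle and stroma have medians of 0.31 on the control diet and 0.21 on the quercetin diet, those of cholesterol synthesis and uptake 0.03 and 0.33, and those of oxidative phosphorylation -0.05 and -0.06.

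Genes of oxidative phosphorylation, the mitochondrial respiratory chain, had small differences, with a median of -0.06. Of 63 genes, 40 were lower on both diets and 0 higher on both, beside 21% and 20.6% of all genes. At an unadjusted p under 0.05, 4 had a lower level and 0 a higher level, against 3.16% and 3.14% over all genes, and 0 passed the adjusted threshold (limma). The mean level of the list overlapped on the control diet, at 10.14 to 10.20 in POR-null and 10.17 to 10.27 in wild type. On the quercetin diet it narrowly did not, at 10.14 to 10.20 in POR-null and 10.21 to 10.27 in wild type. Cox7a2, a subunit of cytochrome oxidase, was at 11.71 to 11.81 in POR-null pools, and its lowest wild-type pool was at 11.82. It was the 1 member whose 6 POR-null arrays were all below the 6 wild-type arrays, with a difference of -0.14 ± 0.05 (SE, adjusted p 0.609). Cox5b, another subunit of that complex, differed by -0.18 ± 0.06, and the complex I subunits Ndufb3 and Ndufc2 by -0.20 ± 0.06 and -0.14 ± 0.06. With single arrays left out, 33 (without wild-type control replicate 2) to 47 of the 63 were lower and 1 to 5 higher on both diets.

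Fatty acid oxidation and ketogenesis gave 1 of 29 genes higher and 8 lower on both diets, with 1 at an unadjusted p under 0.05 on the higher side and 5 on the lower, and a median of -0.02. All genes had 20.6% and 21% on both diets, and 3.14% and 3.16% at such a p. Single arrays left out gave 1 to 6 higher and 6 to 11 lower on both diets, with 6 and 8 for POR-null quercetin replicate 2, and 3 to 6 members at such a p on the lower side, with 3 for 6 of the 12 arrays. Acadl was at 9.63, 9.80 and 9.35 in POR-null control pools and 9.67, 9.72 and 9.73 in POR-null quercetin pools. Wild-type pools had 10.25, 10.13 and 9.96 on the control diet and 10.24, 9.80 and 10.13 on the quercetin diet. Each diet separated its pools, with only the POR-null control replicate 2 at the level of the lowest wild-type pool. The peroxisomal thiolase Acaa1b differed by -0.77 ± 0.23 (SE, adjusted p 0.518) and Bdh1, an enzyme of ketone bodies, by -0.17 ± 0.06, while the medium-chain dehydrogenase Acadm differed by 0.22 ± 0.09. Fatty acid synthesis and elongation had 4 of 19 higher and 2 lower on both diets, with a median of 0.05 (7 higher when POR-null quercetin replicate 1 was dropped). Its 1 member at an unadjusted p under 0.05 was Tecr, the last enzyme of elongation, at 0.18 ± 0.05 (adjusted p 0.474). Lipid absorption and lipoprotein genes had 5 of 19 higher and 7 lower, with a median of -0.08, and 3 were lower on both diets when wild-type quercetin replicate 1 was dropped. At an unadjusted p under 0.05 there were 4, all with a lower level in POR-null, beside 3.16% of all genes. These were Mogat2 and Dgat2, which build triglycerides, at -0.13 ± 0.05 and -0.22 ± 0.09, the fatty acid receptor Cd36 at -0.33 ± 0.12 (0.02 from a dimmer probe set) and the apolipoprotein Apoc3 at -0.45 ± 0.18 (SE). Cd36 had a low mean level of 4.18. Another of its probe sets, at 4.16, differed by -0.29 on the control diet and by 0.05 on the quercetin diet. For Cd36 and Apoc3 the difference lay mainly on the control diet, at -0.56 and -0.81, where wild-type control replicate 2 had the highest level of each, 4.85 and 11.36, and without that array 2 genes of the list were at an unadjusted p under 0.05 with a lower level. Of 10 targets of the sterol receptor LXR, 1 was higher and 2 lower on both diets, and 7 had opposite signs. Their median was -0.06 over both diets, with 0.15 on the control diet and -0.16 on the quercetin diet. The mean level of this list overlapped on the control diet, at 7.50 to 7.77 in POR-null and 7.46 to 7.59 in wild type. On the quercetin diet it did not, at 7.38 to 7.50 in POR-null and 7.68 to 7.78 in wild type. Nr1h3, which encodes LXR alpha, differed by 0.15 ± 0.06, with 0.16 on the control diet and 0.14 on the quercetin diet.

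Conjugation enzymes of phase II gave 7 of 38 higher and 8 lower on both diets, with a median of -0.03. Those lower on both diets numbered 5 without wild-type quercetin replicate 1 and 14 without wild-type quercetin replicate 3. At an unadjusted p under 0.05 there were 3, all with a lower level, beside 3.16% of all genes. Gstk1, a mitochondrial glutathione transferase, differed by -0.72 ± 0.17 (SE, adjusted p 0.34), with -0.75 on the control diet and -0.68 on the quercetin diet. Its levels were 6.93, 7.44 and 7.01 in POR-null control pools and 6.64, 6.75 and 6.94 in POR-null quercetin pools. Wild-type pools had 7.41, 8.36 and 7.86 on the control diet and 8.03, 7.25 and 7.09 on the quercetin diet. The genotypes overlapped on the control diet and were apart on the quercetin diet, and the highest of all was wild-type control replicate 2. Gstm3 and Gstm4, cytosolic glutathione transferases, differed by -0.33 ± 0.14 and -0.12 ± 0.06. Gstm3 was at -0.58 on the control diet and -0.08 on the quercetin diet, and a dimmer probe set had opposite signs (-0.27 and 0.09). Antioxidant genes controlled by Nrf2 had 4 of 23 higher and 9 lower, with a median of -0.04 (7 and 6 when wild-type control replicate 1 was dropped). The glutathione peroxidase Gpx2 differed by -0.48 ± 0.13 (adjusted p 0.452), with -0.78 on the control diet and -0.18 on the quercetin diet, the transketolase Tkt by -0.14 ± 0.06, and glutathione synthetase, Gss, by 0.17 ± 0.06. Genes of gluconeogenesis, glycolysis and amino acid metabolism had 7 of 28 higher and 5 lower, with a median of 0.04. Beside Glul, the pyruvate kinase Pklr differed by 0.34 ± 0.09 (adjusted p 0.414, limma), Psat1 of serine synthesis by 0.25 ± 0.09, and the alanine aminotransferase Gpt by -0.21 ± 0.09. Psat1 had a low mean level of 4.34. A dimmer Psat1 probe set had opposite signs, with 0.24 on the control diet and -0.05 on the quercetin diet. Gpt was at -0.32 on the control diet and -0.09 on the quercetin diet. Other probe sets of Pklr differed by 0.41 (adjusted p 0.111) and 0.27 (adjusted p 0.287, limma).

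Immediate early genes, which respond within minutes to growth factors and handling, had 3 of 23 higher and 10 lower on both diets, with a median of -0.03. Over all genes these shares were 20.6% and 21%. At an unadjusted p under 0.05 the list had 2 members on the higher and 4 on the lower side, beside 3.14% and 3.16% of all genes. When wild-type control replicate 2 was dropped the list had 8 higher and 9 lower on both diets, when wild-type control replicate 1 was 6 and 9, and when POR-null control replicate 3 was 6 and 10. Errfi1 was at 7.96, 8.02 and 7.62 in POR-null control pools and 7.81, 7.48 and 7.94 in POR-null quercetin pools. Wild-type pools had 9.11, 8.61 and 8.49 on the control diet and 8.29, 8.02 and 8.08 on the quercetin diet. Its pools were apart on each diet, with POR-null control replicate 2 at the level of the lowest wild-type quercetin pool. Dusp6, a phosphatase of ERK, differed by -0.36 ± 0.13 and Fosb by -0.26 ± 0.09, while Jund differed by 0.17 ± 0.05 (SE). On the control and quercetin diets Dusp6 was at -0.56 and -0.17, Fosb at -0.37 and -0.14 and Jund at 0.20 and 0.13. Clock genes had 6 of 19 higher and 4 lower with a median of 0.01 (2 and 3 when wild-type control replicate 1 was dropped). Among them Bhlhe40, a repressor of the clock, differed by -0.48 ± 0.12 (adjusted p 0.385), with -0.61 on the control diet and -0.35 on the quercetin diet, while Nr1d1, Tef and Per2 differed by 0.39 ± 0.18, 0.21 ± 0.09 and 0.17 ± 0.07 (dimmer probe sets of Tef and Per2 differed by -0.07 and -0.02); the labels used here do not give the hour at which each pool was taken. The unfolded protein response gave 6 of 24 higher and 6 lower (median -0.02; 3 and 10 when POR-null control replicate 2 was dropped), with the chaperone Dnajb9 at -0.31 ± 0.09 and Edem1, of protein degradation, at 0.24 ± 0.08, though a second Edem1 probe set at a similar mean level of 8.42 differed by -0.03. Heat shock chaperones gave 5 of 16 higher and 1 lower (median -0.01; 3 and 6 when wild-type quercetin replicate 1 was dropped, 8 and 3 when wild-type control replicate 2 was), with Hspb1 at 0.22 ± 0.09. Interferon response genes gave 9 of 28 higher and 7 lower (median -0.03), but 4 and 12 when wild-type quercetin replicate 1 was dropped, 6 and 13 when POR-null quercetin replicate 1 was, and 12 and 3 both for POR-null control replicate 3 and for replicate 1 of the wild-type control. Oasl2, an antiviral protein, differed by -0.48 ± 0.15 (adjusted p 0.568, limma). Its difference lay mainly on the control diet, with -0.84 there and -0.11 on the quercetin diet, and wild-type control replicate 2 was highest at 8.80. Cell cycle genes gave 8 of 38 higher and 7 lower (median 0.00), with the ribonucleotide reductase subunit Rrm2 at -0.19 ± 0.07 and its second probe set at 0.08; without wild-type control replicate 2 they gave 3 higher and 18 lower, and without POR-null quercetin replicate 1 they gave 16 and 7. Host genes of small nucleolar RNAs gave 1 of 9 higher and 0 lower (median 0.06); Gas5 differed by 0.85 on the control diet and by -0.31 on the quercetin diet, which are opposite signs.

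Markers of cells outside the epithelium were measured because scraping can take along underlying tissue. Smooth muscle and stroma had 20 of 23 genes higher on both diets in POR-null and 0 lower, beside 20.6% and 21% of all genes. At an unadjusted p under 0.05 there were 11, all with a higher level, beside 3.14% of all genes, and the median was 0.29. The mean level of the list was 7.08, 6.01 and 6.71 in POR-null control pools and 6.59, 6.81 and 6.46 in POR-null quercetin pools, against 5.94, 6.25 and 6.25 in wild-type control pools and 6.09, 6.61 and 5.95 in wild-type quercetin pools. POR-null control replicate 2 lay within the wild-type range and wild-type quercetin replicate 2 within the POR-null range, so the groups overlapped on both diets. Myl9, a myosin light chain of smooth muscle, was at 8.43, 5.64 and 7.64 in POR-null control pools and 7.03, 7.79 and 6.94 in POR-null quercetin pools. Wild-type pools had 4.80, 6.05 and 6.12 on the control diet and 5.45, 7.15 and 5.14 on the quercetin diet. It differed by 1.46 ± 0.43 (SE, adjusted p 0.512), and the actin-binding proteins Tagln and Flna and the tropomyosin Tpm2 by 1.04 ± 0.30, 0.40 ± 0.14 and 0.82 ± 0.25. The defining genes Actg2, Myh11 and Acta2, picked out after their values were seen, differed by 1.27 ± 0.45, 0.86 ± 0.30 and 0.82 ± 0.29, and a second Myh11 probe set at a mean level of 5.59 differed by -0.04. The counts of 20 and 11 and the median were the same when wild-type control replicate 2 was dropped. Dropping POR-null control replicate 1 gave a median of 0.16, and dropping any other array gave 0.24 to 0.37.

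The other non-epithelial lists had medians between -0.17 and 0.06. Endothelium gave 1 of 10 higher and 3 lower on both diets (median -0.05; Tie1 -0.14 ± 0.06), enteric neurons and glia 2 of 12 and 3 (median -0.02), pancreatic acinar cells 0 of 9 and 3 (median -0.01), adipocytes 1 of 6 and 1 (median 0.01), and red blood cells 1 of 3 and 1 (median -0.07; Alas2 -0.20 ± 0.08). B and plasma cells gave 2 of 15 higher and 3 lower (median -0.09), with the immunoglobulin gene Igha at 0.35 ± 0.17, and MHC class II genes gave 1 of 9 and 2 (median -0.17, with 0.08 on the control diet and -0.44 on the quercetin diet). T cells and intraepithelial lymphocytes gave 10 of 21 and 3 (median 0.06), but 2 and 4 when POR-null quercetin replicate 3 was dropped and 4 and 3 when wild-type quercetin replicate 1 was, with Cd3g, a chain of the T cell receptor complex, at 0.38 ± 0.17. Macrophages and dendritic cells gave 5 of 14 and 4 (median 0.03), with Lyz2 at 0.40 ± 0.18 and Adgre1 at -0.15 ± 0.07, which lie in opposite directions. On the control and quercetin diets Alas2 differed by -0.37 and -0.03, Cd3g by 0.62 and 0.14 and Adgre1 by -0.26 and -0.04, so these differences lay mainly on the control diet. Tie1 had a low mean level of 4.33. Mast cells gave 0 of 11 and 2 (median -0.03; Cpa3 -0.14 ± 0.05). Of epithelial types, Paneth cell genes gave 4 of 9 higher and 1 lower (median 0.10; 2 and 1 with a median of 0.05 when wild-type control replicate 2 was dropped), with the protease Mmp7 at 0.45 ± 0.17, goblet cell genes 0 of 11 and 4 (median -0.05; St6gal1 -0.20 ± 0.08, and 0.03 from a second probe set), and enteroendocrine genes 5 of 18 and 4 (median 0.01). Of the last, Chgb differed by 0.34 ± 0.12, with 0.52 on the control diet and 0.17 on the quercetin diet, and Tac1 by 0.34 ± 0.15. The Tac1 value leaned on POR-null quercetin replicate 2 at 6.40. Its other POR-null pools were at 5.26 to 5.58 and its wild-type pools at 5.08 to 5.33. The hormone Pyy differed by 0.49 on the control diet and by -0.04 on the quercetin diet. Crypt stem cell and Wnt target genes gave 3 of 15 and 1 (median 0.03), and general enterocyte genes 1 of 13 and 6 (median -0.03; Krt20 -0.14 ± 0.06). Position along the gut gave 3 of 11 ileal genes higher and 4 lower (median 0.02), and 2 of 9 colon genes higher and 4 lower (median -0.07). Of the ileal genes, the transcription factor Osr2 differed by 0.33 ± 0.11 and the peptide Guca2a by -0.18 ± 0.06. Osr2 was at 0.53 on the control diet and 0.13 on the quercetin diet. The proximal genes gave 1 of 15 higher and 3 lower, and their median was -0.56 on the control diet and 0.17 on the quercetin diet; without wild-type control replicate 2 the median over both diets was 0.02 in place of -0.05. Over the arrays dropped singly, the counts of genes higher and of genes lower on both diets lay between 0 and 7 in each marker list other than smooth muscle and stroma and T cells.

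**Figure D5:**
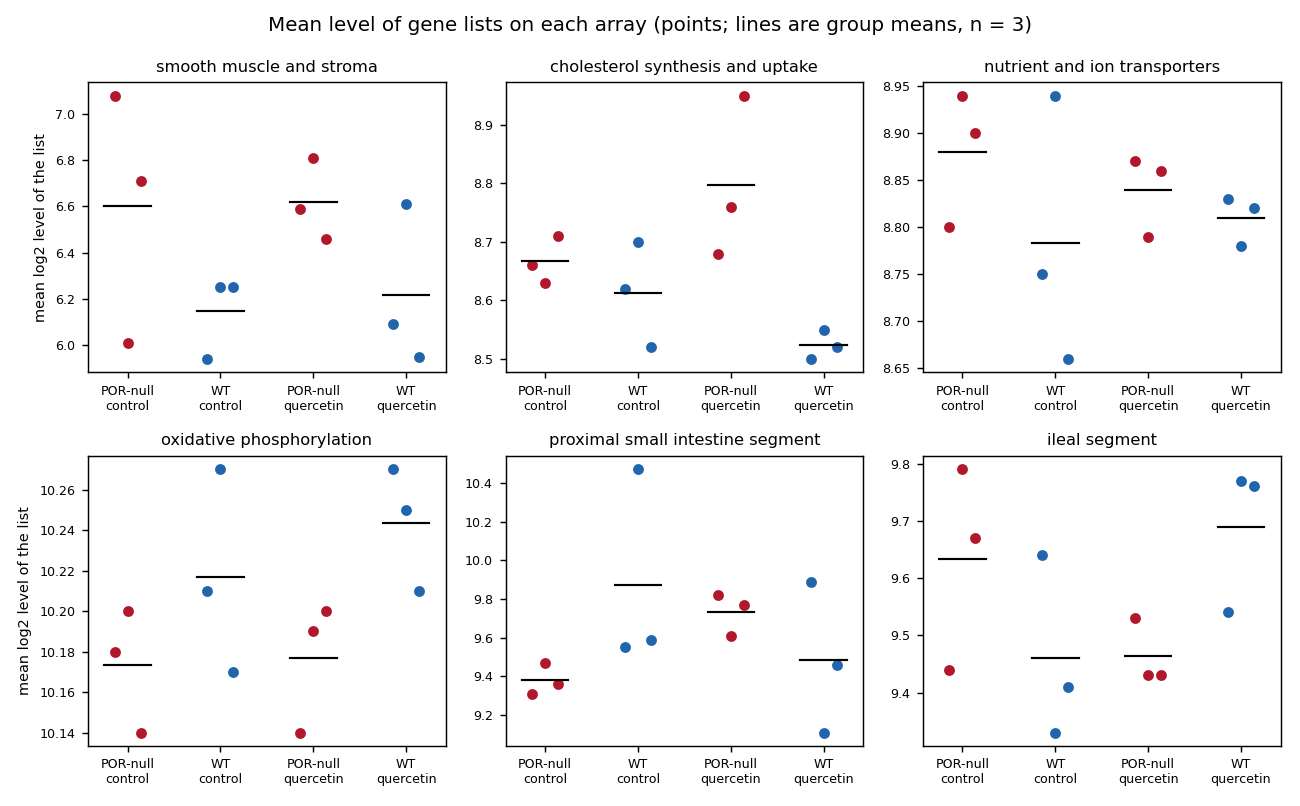
Mean log2 level of the genes of 6 lists (vertical axis, scaled for each list) on each array (points, red POR-null, blue wild type), with lines at the group means of 3 pools. Smooth muscle and stroma is at 6.01 to 7.08 in POR-null and 5.94 to 6.61 in wild-type pools, and wild-type control replicate 2 stands alone at 10.47 among the proximal genes.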

How the data were processed

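Log2 expression values were used as deposited by the authors, 1 per probe set and array, with no further normalization. MAS5 and RMA are listed for them per the submitters' processing notes, without role or version. The arrays were Affymetrix 430A, and their number (12) limits the precision. The 64 array controls among 22690 probe sets were dropped, which left 22626 to test. Annotation gave a single symbol to 20380 probe sets, several symbols to 691 and no symbol to 1555; gene IDs linked 20351 of the single symbols to the GRCm38.p6 table and failed for 29. A gene stood for its probe set with the highest mean level.

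POR-null minus wild type was fitted in limma 3.58.1 (R 4.3.3) with diet as a covariate, on 9 residual degrees of freedom and a prior of 5.646. A model with a mean per group gave the difference on each diet and the interaction. Benjamini-Hochberg adjustment ran over all probe sets, with a threshold of 0.05. The fit with diet as a covariate was tested on simulated independent noise with added genotype differences and no diet effect. The model of group means, the counts and the promoter search were not tested in this way. Named genes are, in each direction, the 15 of shared sign with the smallest p (predicted genes dropped), the 5 largest differences among genes whose genotypes do not overlap, and up to 4 members of each list. The comparison and the 40 gene lists (854 names, 742 matched, 716 genes, 26 on more than 1 list) were chosen with earlier results of these data known. Deviations from the group means of same-numbered POR-null and wild-type arrays had r over probe sets of 0.04, 0.03 and -0.10 on the control diet, and 0.16, 0.00 and 0.11 on the quercetin diet. For different numbers r was -0.11 to 0.09 and -0.22 to 0.10. The numbers were not taken as pairs. Arrays of different diets were not compared in this way, so a link by number across diets was not tested. Alternatives covered normalization, centring, dim probe sets, variance models, array weights, the replicate block, diet in the model, the mean of a gene's probe sets, thresholds, single diets and leaving out each array. Python 3.11.15, pandas 2.3.3 and matplotlib 3.10.9 drew the figures.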

Additional observations from a re-analysis of the deposited data

Results flagged for a closer look

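Mylip, a ubiquitin ligase that degrades the LDL receptor and a target of LXR, differed in opposite directions on the 2 diets. It was at 7.56, 7.67 and 7.58 in POR-null control pools and 7.12, 7.19 and 7.31 in POR-null quercetin pools. Wild-type pools had 7.46, 7.55 and 7.41 on the control diet and 7.57, 7.75 and 7.64 on the quercetin diet. On the control diet all 3 POR-null pools lay above all 3 wild-type pools, with a difference of 0.13, and on the quercetin diet all 3 lay below, with a difference of -0.45. The difference between diets was -0.58, with an unadjusted interaction p of 0.000106 and an adjusted p of 0.176 over all probe sets (limma), so it did not pass. The cause was not tested.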

How the results depend on the processing

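The count of 0 probe sets past the adjusted threshold for genotype over both diets became 1 higher in POR-null, Lamb3, at a threshold of 0.10 and with quantile normalization, array weights, moderation with trend and robust, the brighter probe sets alone (above the median), genotype alone without diet, or the mean of a gene's probe sets. At an unadjusted p under 0.05 it was 772 higher and 678 lower. With the quercetin diet arrays only it was 1 higher (Susd2, 0.69) and 1 lower (Abca1, -1.11). Leaving out each array in turn gave 0 to 6 higher and 0 to 1 lower, 0 to 15 probe sets on the control diet, 0 to 1 on the quercetin diet, 0 to 9 for the interaction, and 0 to 1 genes of the lists. The 6 came without wild-type control replicate 2, namely Lamb3 (0.57, adjusted p 0.0309), Prss30 (0.57, 0.0309), Cdadc1 (0.48, 0.0309), Susd2 (0.58, 0.0223) and 2 probe sets of Chpt1 (0.42, 0.0399, and 0.35, 0.0317). Lamb3 also passed without wild-type quercetin replicate 2 (0.0141) and without POR-null quercetin replicate 3 (0.045). Susd2, Cdadc1 and Abca1 were picked out after their values were seen. The 15 came without wild-type control replicate 1.

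With the replicate number as a block, genotype over both diets gave 1 probe set (Lamb3, adjusted p 0.0369), the quercetin diet 2 and the interaction 3, in place of 0 each. Whether the numbers link arrays across all groups was not tested, so no conclusion is drawn from these counts. Moderation with trend and robust gave 1 on the control diet, 5 on the quercetin diet and 2 for the interaction. With the brighter probe sets alone, 3170 genes had the same sign on both diets and 3966 opposite signs, because fewer genes were counted. The genes at an unadjusted p under 0.05 on each diet with the same sign were 37 without wild-type quercetin replicate 1 and 48 to 83 without any other array. The share with the same sign was 39.1% to 45.4% over the arrays left out in turn and 45.8% with quantile normalization. No named gene changed sign. With 1 diet alone none could, because a shared sign on both diets was how they were chosen. The 75 further list genes were picked without regard to a shared sign, and 4 changed sign where 1 diet was used alone. Mylip was at 0.13 on the control diet, and Nr1h4 at -0.06, Gas5 at -0.31 and Pyy at -0.04 on the quercetin diet. The cause was not tested for any of these.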
